A study of Rattus norvegicus with 6 samples.

Results

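Radial glia are the progenitor cells of the developing cortex, and 7 genes whose transcripts are widely used to mark them were followed here: Pax6, Sox2, Sox9, Nes, Vim, Fabp7 and Slc1a3. They were chosen by name, through 7 Ensembl gene IDs, from the 32754 IDs of the deposited count table, and all 7 were found there. The pairing of ID and symbol was taken as given with that choice and could not be checked against an annotation of Rnor_6.0 here. RNA had been sequenced from cortical tissue of 6 rats before birth, on embryonic day 18, with 1 library per animal. The SD group held 3 Sprague-Dawley embryos, 2 males and 1 female, and served as control. The tish group held 3 embryos, also 2 males and 1 female, of a rat line with bands of misplaced neurons under the cortex on each side, which the series title ties to a deletion in Eml1, the gene of a microtubule-associated protein. No treatment of the animals is named for either group. Per the extraction protocol the SD tissue was neocortex, and the tish tissue was cortex that took in the normally placed and the misplaced part, whereas the sample labels name cortex for SD and neocortex for tish. Tissue description and genotype therefore cannot be told apart, and litter is not given in the labels used here. The p-values set the difference between the groups against the spread among these embryos. They do not separate genotype from tissue description or litter. In earlier results of these data, the libraries SD 1 and tish 3 each stood apart from their group in a small set of other genes, and values without them are given as well.

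Radial glia have their cell bodies in the ventricular zone beside the fluid-filled ventricle and send a long process to the outer surface of the cortex. They divide to give neurons, directly or through intermediate progenitors, and newborn neurons use their processes as guides for migration. Toward birth, when neuron production in the cortex comes to its end, many of them turn to making glia. The markers fall into 3 kinds. Pax6, Sox2 and Sox9 are transcription factors of progenitor identity, and Nes and Vim are intermediate filament proteins of the radial process. Fabp7 is a fatty acid binding protein and Slc1a3 a glutamate transporter, and both are also carried by maturing astrocytes. Sox9 acts in the onset of glia formation as well, so these kinds do not separate progenitors from glia. Whether a turn from radial glia to astrocytes had a part in any change was not tested. Vim is in addition expressed by blood vessel and meningeal cells, whose own markers were not analysed here. The part of these cells in the change of Vim, Nes or any other marker was not tested.

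The 7 markers did not move as one group. All 7 differed between tish and SD, 5 of them lower in tish (Vim, Nes, Pax6, Sox2 and Sox9) and 2 of them higher (Fabp7 and Slc1a3), by the edgeR quasi-likelihood test at a Benjamini-Hochberg adjusted p under 0.05 over all genes tested. Of the 14818 tested genes 26.3% were called, 12.9% as lower and 13.4% as higher in tish. The median log2 fold change of the 7 markers was -0.71, beside -0.02 over all tested genes, and the median absolute log2 fold change was 0.71 beside 0.26. The libraries of tish and SD did not overlap for any of the 7 markers, a pattern that 44.3% of tested genes showed, 22.6% with tish lower and 21.7% with tish higher. At an adjusted p under 0.01, where 13.0% of tested genes were called, 6 of the 7 remained past the threshold and Sox9 did not. DESeq2 called all 7 as well, beside 25.4% of the genes it tested. In these pieces of whole cortex, fewer cells of a type and less RNA per cell cannot be told apart.

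Library totals ran from 15625915 to 20844504 counts. Levels are given as CPM, read counts brought to 1 library size after TMM scaling. They are not divided by transcript length, so they compare libraries for 1 gene and not genes with each other. The markers had 566 to 20286 counts in a library, which puts the counting error of a library at 0.839% to 4.20% of the level at the lowest count of each group. The spread between animals of 1 group was wider, with coefficients of variation of 2.57% to 20.3%. The narrowest was that of Sox2 in tish, 2.57% beside a counting error of 2.08%.

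Pax6 (ENSRNOG00000004410) encodes the paired-box and homeobox factor that gives dorsal radial glia their cortical identity and drives neurogenesis. Its level was 62.0, 81.3 and 84.7 CPM in SD 1, SD 2 and SD 3, against 36.1, 37.9 and 32.7 CPM for tish 1, tish 2 and tish 3. The highest tish library lay well below SD 1, the lowest of SD, and the tish libraries were close to each other. SD averaged 76.0 ± 12.2 CPM and tish 35.6 ± 2.63 CPM (mean and standard deviation, n = 3 each). The log2 fold change was -1.10 (SE 0.13, edgeR adjusted p = 0.000544), or 2.14-fold lower in tish.

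Sox2 (ENSRNOG00000012199) encodes an HMG-box factor that keeps neural progenitors undifferentiated. It stood at 203, 284 and 238 CPM in SD 1, SD 2 and SD 3, and at 148, 145 and 152 CPM for tish 1, tish 2 and tish 3. SD 2 was the high library among the controls, while the tish libraries were almost level. The fall, from 242 ± 40.9 to 148 ± 3.81 CPM (standard deviation, n = 3 each), was a log2 fold change of -0.71 (SE 0.12, edgeR adjusted p = 0.00265), or 1.63-fold.

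Sox9 (ENSRNOG00000002607) encodes a related HMG-box factor that acts in neural stem cells and in the onset of glia formation. It showed the smallest change of the 7 markers. Its level was 57.2, 67.1 and 65.9 CPM in SD and 47.3, 49.2 and 52.2 CPM in tish, in the order of the replicates, so that SD 1 and tish 3 were the libraries nearest to each other. Means of 63.4 ± 5.40 and 49.6 ± 2.49 CPM (standard deviation, n = 3 each) gave a log2 fold change of -0.35 (SE 0.09, 95% interval -0.57 to -0.14, edgeR adjusted p = 0.0225), or 1.28-fold lower in tish. This call depended on which libraries were used. The adjusted p was 0.0586 without SD 2, 0.0729 without SD 3, 0.0990 without tish 1, 0.0663 without tish 2 and 0.0508 without tish 3, while it was 0.00641 without SD 1 and 0.0146 without SD 1 and tish 3 together. The value stayed negative in each of these fits, as groups that do not overlap keep their order when libraries are left out.

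The intermediate filament genes fell by about as much as Pax6. Nestin (Nes, ENSRNOG00000018681) is the filament protein typical of neural progenitors and is lost from neurons as they mature. Nes was at 80.7, 122 and 105 CPM in SD 1, SD 2 and SD 3 and at 43.2, 51.9 and 44.0 CPM for tish 1, tish 2 and tish 3. The female library was the highest in each group, and the groups lay far apart. The log2 fold change was -1.15 (SE 0.15, edgeR adjusted p = 0.00124), from a mean of 103 ± 20.8 to 46.4 ± 4.81 CPM (standard deviation, n = 3 each), or 2.21-fold lower in tish.

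Vimentin (Vim, ENSRNOG00000018087) forms filaments together with nestin along the radial process. Vim was measured at 808, 1094 and 944 CPM in SD 1, SD 2 and SD 3 and at 416, 491 and 347 CPM for tish 1, tish 2 and tish 3. It was the marker with the widest spread among tish libraries, with tish 2 high and tish 3 low, and yet tish 2 stayed far below SD 1. Means of 949 ± 143 and 418 ± 71.9 CPM (standard deviation, n = 3 each) gave a log2 fold change of -1.18 (SE 0.15, edgeR adjusted p = 0.000989), or 2.27-fold lower in tish. The order of Vim, Nes and Pax6 by size of change was not the same in every fit: the log2 fold change was -1.28 for Vim and -1.29 for Nes without SD 1, and -1.09 for Nes and -1.10 for Pax6 without tish 1.

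**Figure D1:**
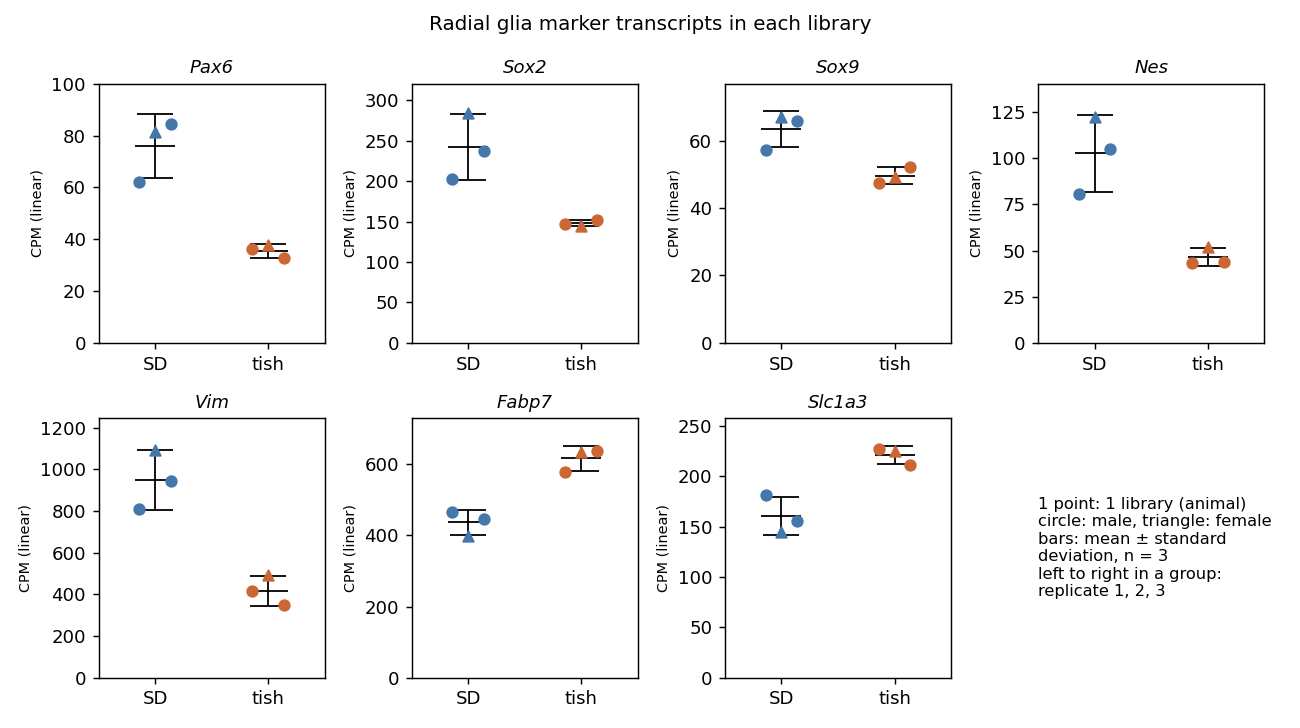
Level of each marker in each library, in CPM on a linear axis that starts at 0, with SD in blue and tish in orange, circles for males and triangles for females. Horizontal bars are the mean and the standard deviation of 3 libraries. The groups do not overlap in any panel, with tish below SD for Pax6, Sox2, Sox9, Nes and Vim and above SD for Fabp7 and Slc1a3.

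Fabp7 and Slc1a3 went the other way. Fabp7 (ENSRNOG00000000814), also known as brain lipid binding protein, carries fatty acids in radial glia and in young astrocytes. Its level was 465, 398 and 447 CPM in SD 1, SD 2 and SD 3 and 577, 634 and 637 CPM for tish 1, tish 2 and tish 3. All tish libraries were above SD 1, the highest of the controls, and SD 2 was the lowest of all. The rise from 436 ± 34.5 to 616 ± 33.9 CPM (standard deviation, n = 3 each) was a log2 fold change of 0.50 (SE 0.09, edgeR adjusted p = 0.00414), or 1.41-fold.

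Slc1a3 (ENSRNOG00000016163) encodes the glutamate transporter GLAST, which takes up glutamate into radial glia and astrocytes. It was at 182, 144 and 156 CPM in SD 1, SD 2 and SD 3 and at 227, 225 and 211 CPM for tish 1, tish 2 and tish 3. The nearest libraries across the groups were SD 1 and tish 3. The log2 fold change was 0.46 (SE 0.10, edgeR adjusted p = 0.00754), from 161 ± 19.0 to 221 ± 8.75 CPM (standard deviation, n = 3 each), or 1.38-fold higher in tish. With the males alone, 2 against 2, it was 0.38 with an adjusted p of 0.0589, and Sox9 also missed the threshold at 0.122. The males alone called 5 of the 7 markers, beside 14.3% of tested genes.

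**Figure D2:**
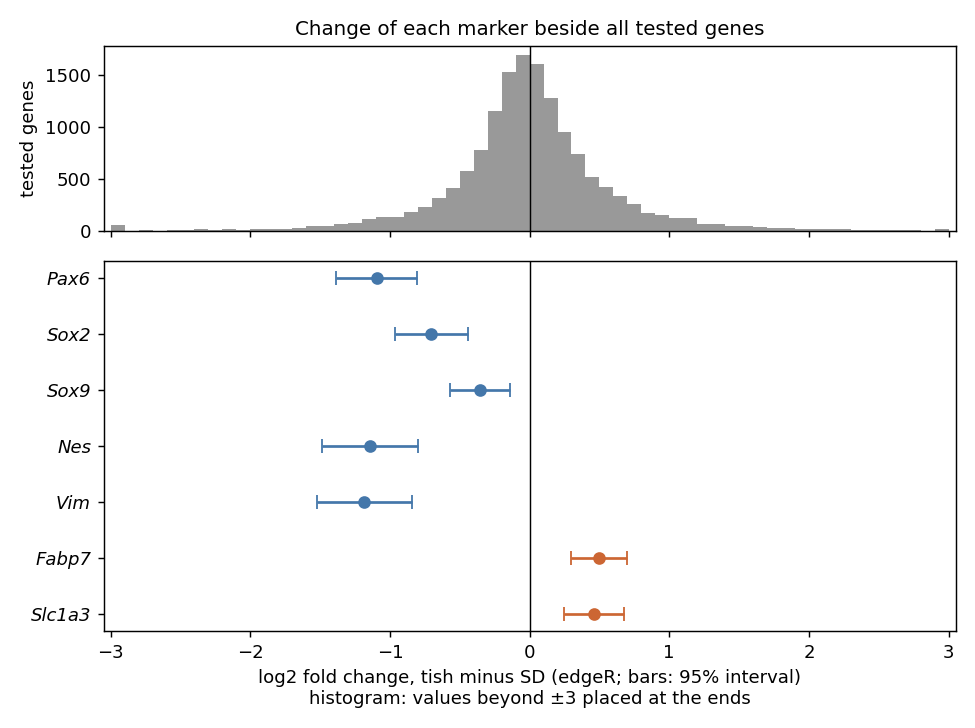
Log2 fold change of each marker, tish minus SD, from the edgeR fit, with its 95% interval (lower panel), under the distribution of the same value over 14818 tested genes (upper panel, genes per bin, values beyond the axis placed at its ends). Vim, Nes and Pax6 lie near -1.1, Sox2 at -0.71, Sox9 at -0.35, and Fabp7 and Slc1a3 near 0.5.

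Set among all tested genes, the falls of the filament genes and of Pax6 were in the lower tail. Only 3.01% of tested genes had a lower log2 fold change than Vim, 3.25% than Nes and 3.67% than Pax6. Sox2 followed with 8.07% and Sox9 with 19.4%. The rises were less extreme, with 86.3% of tested genes below Fabp7 and 85.0% below Slc1a3. All 7 markers belonged to the upper part of the abundance range. Vim, Fabp7, Sox2 and Slc1a3 were in the highest of 5 equal classes of genes by average abundance, where 30.4% of genes were called, and Nes, Sox9 and Pax6 in the next, where 29.0% were called. The variation between replicates that edgeR estimated was 9.31% (Fabp7) to 13.9% (Nes) for the markers, beside a median of 13.9% over all tested genes.

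The summed level of the 5 markers that were lower was 1211, 1650 and 1437 CPM in SD 1, SD 2 and SD 3 and 691, 774 and 628 CPM for tish 1, tish 2 and tish 3, and Vim made up most of it. The summed level of Fabp7 and Slc1a3 was 646, 542 and 603 CPM in SD and 804, 859 and 848 CPM in tish. All 7 together came to 1857, 2192 and 2040 CPM in SD and 1495, 1633 and 1476 CPM in tish. These sums describe the sizes of the changes and add no test, since the first 2 were formed by direction.

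Ratios of counts between markers within a library do not depend on library size or scaling. Of the 21 pairs of markers, the ratio did not overlap between tish and SD in 17. These took in all 10 pairs of a lower and a higher marker. Such pairs had to part, since each marker by itself did not overlap. The rest were 7 of the 10 pairs in which both markers were lower. For ratios of a marker to any other tested gene the share was 75.2%, so a count of 17 in 21 is near what these markers gave against genes at large. By marker, this share ran from 57.3% for Sox9 to 87.6% for Vim, with 86.5% for Pax6 and 85.4% for Nes. In each of the 17 pairs the exact two-sided permutation test gave p = 0.1, the smallest that 3 against 3 libraries allow, and 0.124 after Benjamini-Hochberg adjustment over the 21 pairs, so no pair can pass 0.05 in this design.

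The 4 pairs that overlapped were those within the trio of Vim, Nes and Pax6, and the pair of Fabp7 and Slc1a3. The log2 ratio of Nes to Vim averaged -3.22 ± 0.09 among SD and -3.16 ± 0.16 among tish libraries (standard deviation, n = 3 each), a difference of 0.06. For Pax6 to Nes the difference was 0.05, for Pax6 to Vim 0.10 and for Fabp7 to Slc1a3 0.03. Each of these was smaller than the standard deviation within either group, which ran from 0.08 to 0.16 over the 4 pairs. With 3 libraries a group, this does not show that the members of a pair changed alike.

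The ratios of Sox2 to Vim, Nes and Pax6 were higher in all tish libraries than in all SD libraries. The ratio of Sox2 to Vim counts was 0.251, 0.260 and 0.252 in SD 1, SD 2 and SD 3, almost constant, and 0.354, 0.295 and 0.439 in tish 1, tish 2 and tish 3. The tish ratios were all above those of SD and differed more among themselves, with tish 3, the library low in Vim, at the top. The difference of the mean log2 ratio was 0.49 between the groups.

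Every other marker shifted against Sox9, which for Fabp7 and Slc1a3 follows from their opposite direction. Among tested genes other than the 7 markers, the ratio to Sox9 also did not overlap between tish and SD in 57.3%. The difference in the log2 ratio to Sox9, tish minus SD, was -0.83 for Vim, -0.78 for Nes, -0.73 for Pax6 and -0.34 for Sox2, and it was 0.85 for Fabp7 and 0.82 for Slc1a3. Fabp7 to Sox9 was the ratio with the least spread in tish, 12.2, 12.9 and 12.2 counts of Fabp7 per count of Sox9, against 8.12, 5.93 and 6.78 in SD. Pax6 to Sox9 was 1.08, 1.21 and 1.28 in SD and 0.764, 0.769 and 0.626 in tish. With all 6 libraries, the widest shift of any pair was that of Vim against Fabp7, from 1.74, 2.75 and 2.11 in SD to 0.722, 0.774 and 0.545 in tish, a 3.21-fold fall of the ratio. Counts are not per length, so a ratio on one or the other side of 1 says nothing about which transcript was more abundant.

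**Figure D3:**
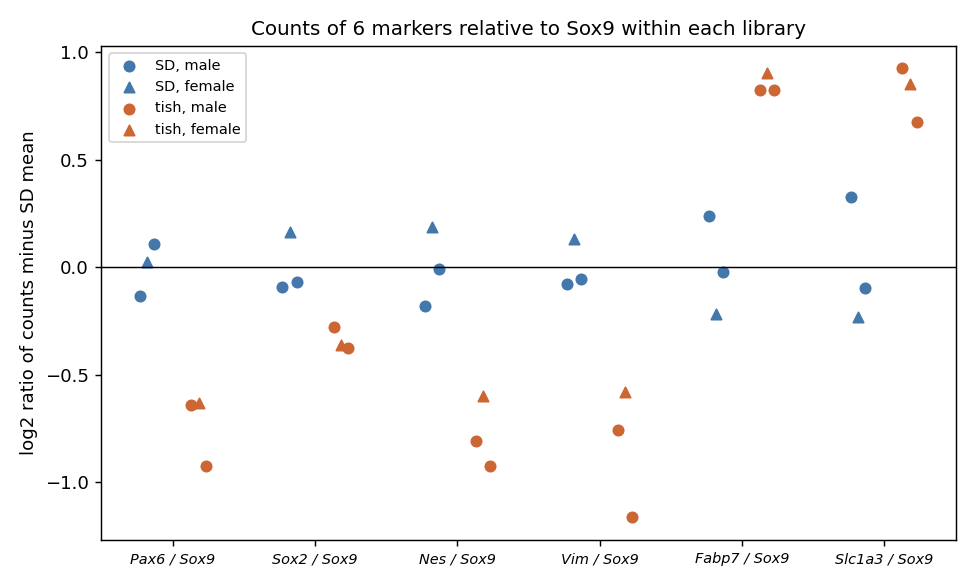
Log2 ratio of the counts of 6 markers to those of Sox9 in each library, minus the mean of that ratio in SD, with SD in blue, tish in orange, circles for males and triangles for females. The tish points lie below all SD points for Pax6, Sox2, Nes and Vim and above them for Fabp7 and Slc1a3.

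The markers also varied together among the control animals. SD 1 was the lowest SD library for each of the 5 markers that were lower in tish and the highest for both that were higher, so that in 7 of 7 it was the control nearest to tish. Over the 3894 called genes, SD 1 was the control nearest to tish in 62.6%, SD 2 in 19.1% and SD 3 in 18.4%. SD 2, the female control, was farthest from tish in 6 of the 7 markers, all but Pax6, and in 41.7% of called genes. SD 3, a male, was farthest in 1 of the markers and in 42.0% of called genes. The deviation of SD 2 from the SD mean was 0.27 for Nes, 0.25 for Sox2 and 0.22 for Vim on the log2 CPM scale. It was -0.15 for Slc1a3 and -0.13 for Fabp7. Among tish libraries, tish 1, tish 2 and tish 3 were nearest to SD in 1, 3 and 3 of the markers, and in 35.9%, 45.6% and 18.5% of called genes. Farthest from SD was tish 3 in 3 of the markers, as was tish 1, while over called genes it was tish 3 in 51.3% and tish 1 in 23.7%.

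**Figure D4:**
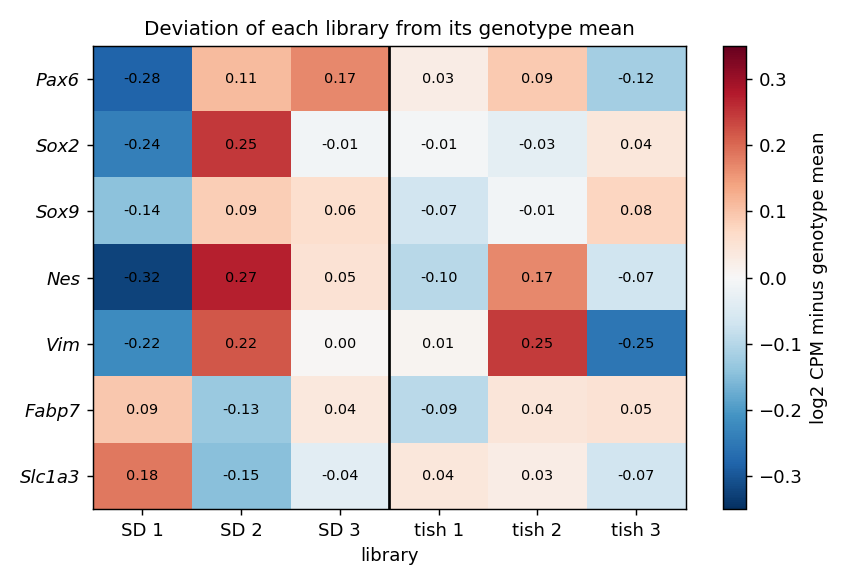
Deviation of each library from the mean of its genotype, in log2 CPM, for each marker, with red above and blue below the mean. SD 1 is below its group mean for Pax6, Sox2, Sox9, Nes and Vim and above it for Fabp7 and Slc1a3, and in tish the widest deviations are those of Vim in tish 2 and tish 3.

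Without SD 1 and tish 3 together the log2 fold changes were -1.17 for Vim, -1.25 for Nes, -1.16 for Pax6, -0.84 for Sox2, -0.46 for Sox9, 0.52 for Fabp7 and 0.59 for Slc1a3, with edgeR adjusted p-values at or under that of Sox9. Since the groups did not overlap for any marker, the direction had to be the same in males and in the single female pair. The difference of log2 CPM between tish and SD was -0.55 in males and -0.97 in the female pair for Sox2, -1.20 and -1.16 for Vim, -1.08 and -1.23 for Nes, and -1.07 and -1.10 for Pax6. For Sox9 it was -0.30 and -0.45, for Fabp7 0.41 and 0.67, and for Slc1a3 0.38 and 0.64. With 1 female per group the differences between the sexes were not tested.

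**Figure D5:**
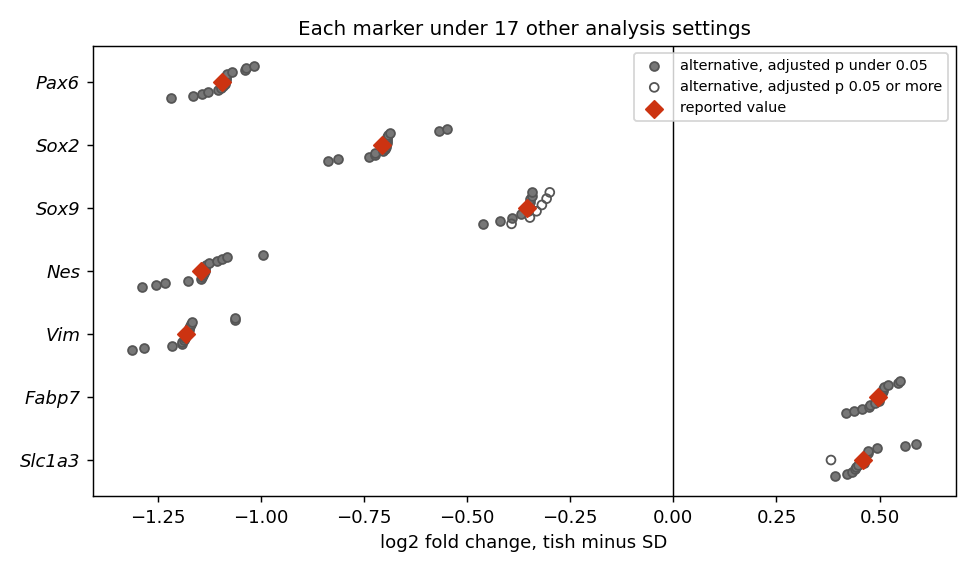
Log2 fold change of each marker, tish minus SD, as reported (red diamonds) and under 17 other settings (circles, open where the adjusted p is 0.05 or more), spread vertically for visibility. All values keep the sign of the reported one, and the open circles are 6 of Sox9 and 1 of Slc1a3.

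The mean profile of the 7 markers, each scaled to unit variance over the 6 libraries, was most closely followed by 2 genes given here by ID. ENSRNOG00000010448 had a Pearson r of 0.9997 with it over 6 libraries and stood at 191, 257 and 244 CPM in SD and 115, 138 and 117 CPM in tish. ENSRNOG00000015529 had an r of 0.999 and stood at 41.2, 64.2 and 63.8 CPM in SD and 20.6, 26.6 and 21.6 CPM in tish. All values come from the same 6 libraries, which part by genotype, and the profile is led by the markers that were lower. Nes had an r of 0.997 with it, Slc1a3 -0.966 and Fabp7 -0.935, and each of them is itself part of the profile. Of tested genes, 99.9% had a lower r than Nes, 2.88% a lower r than Slc1a3 and 6.83% a lower r than Fabp7.

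The promoters of the filament genes, which fell, and of Fabp7 and Slc1a3, which rose, are shown so that the proximal sequence of markers moving in opposite directions can be compared. Each runs from 250 bases before to 50 bases after a transcript start of RefSeq on the build GRCr8, 5′ to 3′ on the gene's strand: Nes at chr2:175736338-175736637 (plus strand), Vim at chr17:81577011-81577310 (plus strand), Fabp7 at chr20:37669356-37669655 (plus strand) and Slc1a3 at chr2:59557759-59558058 (minus strand, the first of 3 starts listed). These coordinates are on another build than the Rnor_6.0 of the counts and were matched by symbol, which was possible for 6 of the 7 markers. Capitals mark matches, on either strand, to 7 short motifs: the E-box CANNTG, the RBPJ motif TGGGAA, a SOX motif ACAATG, the CCAAT box CCAAT, the GC box GGGCGG, the TATA box TATAAA and the AP-1 motif TGANTCA.
Nes: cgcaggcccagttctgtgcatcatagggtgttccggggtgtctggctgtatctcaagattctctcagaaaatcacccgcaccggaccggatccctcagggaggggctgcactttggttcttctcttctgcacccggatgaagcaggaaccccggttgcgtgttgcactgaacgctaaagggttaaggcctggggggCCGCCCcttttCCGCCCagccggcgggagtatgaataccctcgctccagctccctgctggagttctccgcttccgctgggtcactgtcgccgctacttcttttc
Vim: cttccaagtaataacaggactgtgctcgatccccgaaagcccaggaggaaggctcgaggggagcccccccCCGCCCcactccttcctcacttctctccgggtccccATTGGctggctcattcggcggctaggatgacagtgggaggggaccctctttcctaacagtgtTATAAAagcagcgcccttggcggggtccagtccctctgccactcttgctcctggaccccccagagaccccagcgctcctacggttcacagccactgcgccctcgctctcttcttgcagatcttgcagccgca
Fabp7: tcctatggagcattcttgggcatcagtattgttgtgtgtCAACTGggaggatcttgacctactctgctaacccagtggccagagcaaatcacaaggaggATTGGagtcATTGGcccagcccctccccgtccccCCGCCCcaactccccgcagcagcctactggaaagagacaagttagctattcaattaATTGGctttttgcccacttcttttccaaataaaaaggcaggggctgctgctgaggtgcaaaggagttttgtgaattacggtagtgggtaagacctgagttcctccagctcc
Slc1a3: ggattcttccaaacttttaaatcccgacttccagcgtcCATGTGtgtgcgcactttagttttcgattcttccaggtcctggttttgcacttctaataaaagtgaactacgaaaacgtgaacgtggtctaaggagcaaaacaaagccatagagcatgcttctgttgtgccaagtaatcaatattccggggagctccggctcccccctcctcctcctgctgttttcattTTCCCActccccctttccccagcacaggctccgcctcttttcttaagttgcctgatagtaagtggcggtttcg

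No match overlapped another in these promoters. The Vim promoter held 1 CCAAT box, 1 GC box and 1 TATA box, the Nes promoter 2 GC boxes, and the Fabp7 promoter 3 CCAAT boxes, 1 GC box and 1 E-box. The Slc1a3 promoter shown held 1 E-box and 1 match to the RBPJ motif, the letters bound by the DNA-binding partner of Notch. The promoters of the other listed Slc1a3 starts held 2 E-boxes and 1 RBPJ match each. The RBPJ letters were also found once in the Pax6 promoter and not in those of Sox2, Nes, Vim and Fabp7. The Sox2 promoter held 1 CCAAT box, 1 GC box and 1 E-box. Of all 33469 promoters of the same length, 25.7% held the RBPJ letters, 37.5% a CCAAT box, 33.1% a GC box, 72.1% an E-box, 14.2% a TATA box, 13.2% the SOX letters and 7.33% the AP-1 letters. A match is a run of letters, not a shown binding site. The SOX and AP-1 letters were found in none of the 6 promoters, so they could not separate the markers by direction. None of the other motifs separated the lower from the higher markers among these 6. Sox9 had no promoter here, and so few promoters leave the question undecided.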

How the data were processed

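The values the authors deposited are unnormalized counts of reads per gene. The submitters' processing notes name STAR for alignment, the build Rnor_6.0, and featureCounts 1.5.0 for counting. Annotation release, strand setting and STAR version were not stated there, so it is not known whether reads of overlapping or antisense genes were told apart. The table lists its genes 2 times with 0 differing values, and the first occurrence of each of 32754 IDs was used. The 7 symbols came with the choice of the markers. They were not checked against an annotation, since the RefSeq table at hand pairs 0 Ensembl IDs with symbols. For the same reason Eml1, the lists of other lineage genes and the markers of other cell types were not analysed here, and their part in the results was not tested.

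All IDs entered edgeR 4.0.16 in R 4.3.3 (filterByExpr with a minimum count of 10, TMM scaling, robust quasi-likelihood F test, genotype as the only term). The standard error is the size of the log2 fold change over the square root of F. Log2 CPM used a prior count of 2 and ratios one of 0.5. Alternatives used DESeq2 1.42.0, limma 3.58.1 (voom), other scalings, filters and subsets of libraries. Markers, lists and tests were chosen with earlier results of these data known. The named genes were all 7 markers and the 2 IDs most like their mean profile. Counting errors cover sampling of reads only.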

Additional observations from a re-analysis of the deposited data

How the results depend on the processing

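Of 119 values of the 7 markers under other settings, 112 kept their direction and their side of the threshold, 7 lost the threshold and 0 reversed. Pax6, Sox2, Nes, Vim and Fabp7 kept both under all 17 settings. Leaving out libraries could hardly reverse a marker whose groups did not overlap, so the direction under those settings adds little. With males alone the log2 fold change was 0.38 for Slc1a3 and -0.30 for Sox9, and neither passed the threshold, which left 1 marker called higher. With 1 library left out, that of Sox9 ran from -0.42 to -0.31. The median log2 fold change of the markers, -0.71, was -0.55 with males alone, and -0.84 without SD 1 and tish 3 together. Removing single libraries gave -0.81 to -0.57, the last without SD 2. It was negative throughout. Pairs of markers without overlap numbered 17 or 18 under all alternatives. Leaving out libraries cannot make such a pair overlap, so only the prior count of 10 could have lowered the number, and it gave 17. For the pairs of markers, the alternatives with single libraries left out were chosen after seeing the data. So were some of the alternatives for the median, though not those with single libraries left out. Over all tested genes, the counts called, higher and lower were 3894, 1980 and 1914. They were 2130, 1170 and 960 with males alone, and 1930, 1046 and 884 at an adjusted p under 0.01. With 1 library left out they ran from 2437 to 4764, 1307 to 2480 and 1130 to 2284. Without SD 1 and tish 3, also 2 against 2, 3743 genes were called. The stricter threshold lowers the count by its construction, and for the subsets of libraries the cause was not tested. Alternatives for genes by symbol were not run. No paired analysis was possible because the numbers only name the libraries. None of these markers had under 566 counts in a library, and the part of depth in the spread between libraries was not tested.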
